A study of Mus musculus with 24 samples.

Results

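Retinoic acid, the active form of vitamin A, was followed here through the 9 genes that carry its precursor, make it, bind it, break it down and read it: Rbp4, Stra6, Aldh1a1, Aldh1a2, Aldh1a3, Crabp1, Crabp2, Cyp26b1 and Rarb. The genes were chosen by symbol, with earlier results of these data known. Crabp1 was selected on its low count in hyperoxic lungs, so that its change there is given as a description with no test. All 9 were among the 36109 genes of the lung table and the 36595 genes of the retina table. In each tissue 8 of the 9 had enough reads to be tested, of 16819 lung genes and 19173 retina genes that passed the same filter. Crabp2 in the lung and Aldh1a2 in the retina were too low.

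Retinol travels in blood bound to RBP4, enters cells through receptors such as STRA6, and is oxidised first to retinal and then, irreversibly, to retinoic acid by the retinal dehydrogenases of the ALDH1A family. Inside the cell, retinoic acid is held by the cellular binding proteins CRABP1 and CRABP2, is cleared by CYP26 enzymes, and acts through nuclear receptors such as RARB. In the lung the pathway is known for its part in forming alveoli, and in the eye the same family of molecules supplies the chromophore of the photoreceptors.

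The samples were whole lungs and whole retinas of newborn C57/B6 mice, 12 of each, with 3 mice in each of 4 groups. The hyperoxic groups are called WT-O2 and KO-O2, the latter being GSDMD-KO mice, and their room air counterparts are WT-RA and KO-RA. GSDMD is the pore-forming protein that executes pyroptosis, an inflammatory cell death, and the knockout was global, made with CRISPR/Cas9 as a short deletion in the gene, with WT littermates as the other genotype. Lungs came from mice kept in 85% O2 or 21% O2 from postnatal day 1 to day 14 and were taken on day 15, as a model of bronchopulmonary dysplasia. Retinas of the O2 groups came from mice kept in 75% O2 from day 7 to day 12 and then in room air until day 18, as a model of retinopathy of prematurity. Retinas of the room air groups came from mice kept in 21% O2 from day 1 to day 17, and all were taken on day 18.

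Libraries held 28763661 to 29604254 counts in the lung and 24863257 to 29093035 in the retina. Gsdmd itself was at 22.6 to 24.8 CPM (counts per 1000000 counts of the library) in KO-RA lungs and 11.7 to 16.3 in KO-O2 lungs, below the 32.1 to 42.3 of all WT lungs, and in the retina it was lower throughout, at 0.636 to 2.95 CPM in the 6 GSDMD-KO retinas and 2.70 to 5.70 CPM in 5 of the WT retinas. The library labelled WT-RA retina 2 held 0.419 CPM, below all GSDMD-KO retinas, so that its Gsdmd level goes against its label. It is also one of 3 lens-rich retinas left out below, and without it alone the number of genes called with hyperoxia in WT retinas was 196 in place of 391. Y-linked transcripts marked 0 WT-RA lungs, 1 WT-O2 lung, 2 KO-RA lungs and 3 KO-O2 lungs, and 3 retinas of either room air group against 1 of either hyperoxia group, so that sex ran partly with genotype in the lung and partly with exposure in the retina. The summed level of 7 lens genes was 24400 CPM in WT-RA retina 2, 76600 in WT-RA retina 3 and 40000 in KO-RA retina 3, against 3.61 to 297 CPM in the other 9 retinas, and values without these 3 libraries are given for Stra6, Crabp1, Aldh1a1 and the list genes described. None of the 8 genes tested was called in the 12 retinas by edgeR. Lung KO-O2 mouse 1 held 424 CPM of 12 liver genes, against 228 to 327 in the other lungs. Most of the sum in the other lungs was Trf, at 220 to 314 CPM, which was at 238 CPM in this mouse. Alb was at 78.1 CPM in this mouse against at most 2.20 in the others, and Ahsg at 47.4 against at most 0.885. In whole tissue, fewer cells of a type and less RNA per cell cannot be told apart.

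Apart from Crabp1, which was selected for its fall, 3 of the 7 other genes tested were called between hyperoxic and room air lungs in both genotypes. The share called among all genes tested was 11.6% in WT and 10.6% in GSDMD-KO. Crabp1 and Cyp26b1, which bind and clear retinoic acid, were low in hyperoxia, while Aldh1a2 and Aldh1a3, which make it, were high. The gene that delivers the carrier, Rbp4, the receptor gene Rarb and the most abundant dehydrogenase gene, Aldh1a1, did not pass the test.

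CRABP1 is a cytosolic protein that binds retinoic acid. In lungs of WT-RA mice Crabp1 was at 34.2, 45.1 and 78.6 CPM, and in WT-O2 lungs it was at 0.511, 0.895 and 0.135 CPM. In GSDMD-KO mice it was at 56.0, 49.2 and 31.4 CPM in room air and at 0.700, 0.708 and 0.468 CPM in hyperoxia. The highest hyperoxic lung was thus far under the lowest room air lung, and the ranges of the 2 genotypes overlapped. The mean was 102-fold lower in WT-O2 than in WT-RA (0.514 ± 0.380 against 52.6 ± 23.1 CPM, SD, n = 3) and 72.9-fold lower in KO-O2 than in KO-RA (0.625 ± 0.136 against 45.6 ± 12.7 CPM, SD, n = 3). Hyperoxic lungs held 4 to 26 counts of Crabp1 in all, so the size of the fold rests on few reads. Leaving out 1 lung at a time moved the fitted log2 fold change from -7.33 to -6.22 in WT and from -6.39 to -6.01 in GSDMD-KO.

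CRABP2 hands retinoic acid to its nuclear receptor. Its transcript was close to absent from the lung: Crabp2 had 2 to 17 counts per library, or 0.0683 to 0.574 CPM, and was not tested there. Crabp2 values in hyperoxia and room air overlapped.

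CYP26B1 is a cytochrome P450 that oxidises retinoic acid to forms that are removed. Cyp26b1 was at 59.8, 60.4 and 43.8 CPM in WT-RA lungs and 8.28, 9.19 and 3.92 CPM in WT-O2 lungs. In GSDMD-KO lungs it was at 37.7, 33.1 and 36.4 CPM in room air and 3.50, 9.13 and 3.71 CPM in hyperoxia. Every hyperoxic lung, at 9.19 CPM or less, lay below every room air lung, at 33.1 CPM or more. Cyp26b1 fell by 2.94 on the log2 scale in WT (SE 0.38, adjusted p = 0.00022) and by 2.72 in GSDMD-KO (SE 0.39, adjusted p = 0.00045), by the quasi-likelihood test of edgeR, Benjamini-Hochberg adjusted over all genes tested. The room air values of the 2 genotypes did not overlap, KO-RA being lower, but the log2 difference of -0.61 (95% interval -1.39 to 0.16) did not pass (edgeR, adjusted p = 0.60), and with sex as a covariate it was -0.24.

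ALDH1A2 is the dehydrogenase that makes most retinoic acid in the embryo. Aldh1a2 was at 6.21, 9.72 and 3.78 CPM in WT-RA lungs and at 19.0, 29.5 and 25.3 CPM in WT-O2 lungs. In GSDMD-KO lungs it was at 6.63, 5.17 and 11.7 CPM in room air and at 28.9, 34.9 and 20.7 CPM in hyperoxia. The groups did not overlap in either genotype, and the log2 increase was 1.90 in WT (SE 0.38, edgeR, adjusted p = 0.003) and 1.84 in GSDMD-KO (SE 0.38, edgeR, adjusted p = 0.0036).

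ALDH1A3 is another dehydrogenase of the same reaction, known from the eye and nasal region. Aldh1a3 was at 0.663, 1.92 and 0.963 CPM in WT-RA lungs and at 6.65, 13.1 and 14.6 CPM in WT-O2 lungs. In GSDMD-KO lungs it went from 1.37, 1.21 and 2.07 CPM to 16.0, 11.3 and 10.1 CPM. The lowest hyperoxic value was more than 3 times the highest room air value, and the log2 increase was 3.27 in WT (SE 0.40, edgeR, adjusted p = 4.5e-05) and 3.01 in GSDMD-KO (SE 0.38, edgeR, adjusted p = 7.5e-05).

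ALDH1A1 is the third enzyme of the family, and its transcript was the most abundant of the family. Aldh1a1 was at 482, 400 and 258 CPM in WT-RA lungs and 406, 265 and 288 CPM in WT-O2 lungs, which overlapped. KO-RA lungs held 321, 412 and 507 CPM and KO-O2 lungs 254, 277 and 332 CPM, also with overlap. The log2 differences were -0.25 (95% interval -0.79 to 0.29) in WT and -0.53 (95% interval -1.06 to 0.01) in GSDMD-KO, and neither passed (edgeR, adjusted p = 0.45 and 0.11).

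Rbp4 encodes the carrier of retinol in plasma, which the liver secretes. Rbp4 lay between 4.64 and 7.31 CPM in all 12 lungs, with log2 differences of -0.11 in WT and -0.33 in GSDMD-KO that did not pass (edgeR, adjusted p = 0.62 and 0.12), although the KO-RA and KO-O2 values did not overlap. The KO-O2 lung with liver transcripts held 6.86 CPM of Rbp4, within the range of all lungs but the highest of its group, against 4.99 and 5.42 CPM. Leaving out 1 lung at a time put the GSDMD-KO difference of Rbp4 between -0.47 and -0.22 (edgeR, adjusted p from 0.052 to 0.37). The part of liver transcripts in this was not tested. Stra6, the receptor that takes up retinol from RBP4, lay between 0.372 and 1.38 CPM, and Rarb, a nuclear receptor whose own gene is a classical target of retinoic acid, between 3.03 and 5.26 CPM. For Rarb the 95% intervals of the log2 difference ran from -0.55 to 0.25 in WT and from -0.47 to 0.32 in GSDMD-KO, so that a 2-fold change lay outside both.

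**Figure D1:**
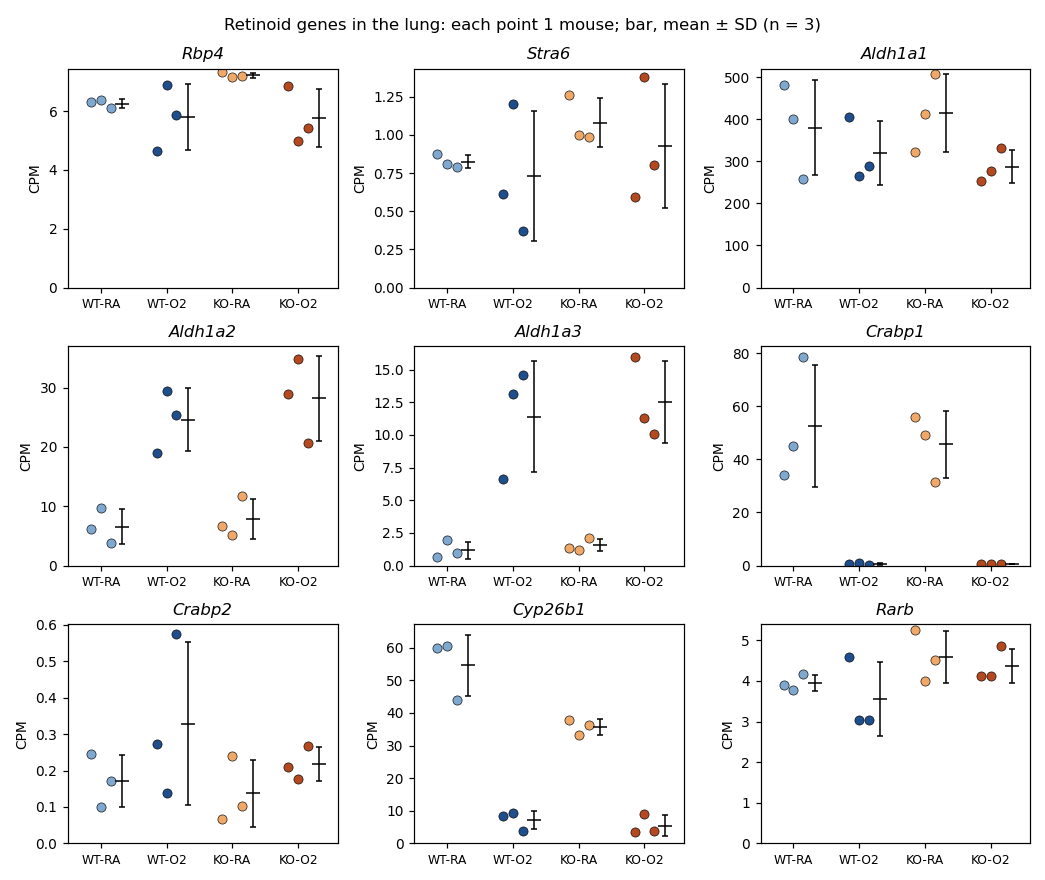
Levels of the 9 genes in the 12 lungs, in CPM on linear axes that start at 0 and differ between panels. Each point is 1 mouse and the black bar beside it the mean ± SD of 3 mice. Crabp1 and Cyp26b1 were low in both O2 groups, Aldh1a2 and Aldh1a3 were high, and the remaining panels overlap between O2 and RA in at least 1 genotype.

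Counted over the 8 genes other than Crabp1, of which 7 were tested, 3 passed in WT lungs and 3 in GSDMD-KO lungs, a call being a change of 2-fold or more with p under 0.05 and adjusted p under 0.1. In each genotype 2 were higher (Aldh1a2, Aldh1a3) and 1 lower (Cyp26b1). Over all genes tested, 11.6% were called with hyperoxia in WT and 10.6% in GSDMD-KO. Because the genes were chosen with earlier results of these data known, setting the counts beside these shares is a description only. The median log2 fold change of the 7 tested genes was -0.15 in WT and -0.23 in GSDMD-KO, against -0.01 over all genes in both. All 3 calls held in both genotypes under each alternative that was fitted, including each fit that left out 1 lung.

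The comparison between genotypes asked whether loss of GSDMD altered this response. None of the 8 genes tested was called between KO-O2 and WT-O2 lungs, between KO-RA and WT-RA lungs, or for the interaction of genotype and hyperoxia. By edgeR's quasi-likelihood test none of the 8 had an unadjusted p under 0.05. Crabp1 is among the 8, and the comparison in hyperoxia and the interaction use the hyperoxic lung values on which it was selected. For Crabp1 these results are therefore a description only. Over all genes tested, 0.0238%, 0.137% and 0.00595% were called in these comparisons. An unadjusted p under 0.05 in edgeR was held by 1045, 1762 and 1130 of the 16819 genes tested. The log2 difference between the GSDMD-KO and the WT response was -0.06 for Aldh1a2 (95% interval -1.24 to 1.13), -0.26 for Aldh1a3 (-1.45 to 0.93) and 0.22 for Cyp26b1 (-0.97 to 1.41). These intervals are wide enough to hold a 1-log2-unit difference in at least 1 direction for each of the 3.

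Compared per kilobase of the longest coding transcript, the order of the genes differed between room air and hyperoxia. In WT-RA lungs Aldh1a1 was highest, at 161 ± 48.1 CPM per kilobase (SD, n = 3), followed by Crabp1 at 65.6 ± 28.8, Cyp26b1 at 12.2 ± 2.09, Rbp4 at 5.39 ± 0.125 and Aldh1a2 at 2.90 ± 1.32. In WT-O2 lungs Aldh1a1 was followed by Aldh1a2 at 10.9 ± 2.34, Rbp4 at 4.99 ± 0.969, Aldh1a3 at 3.33 ± 1.23 and Cyp26b1 at 1.59 ± 0.627 CPM per kilobase, and Crabp1 stood at 0.641 ± 0.474. Rbp4 and Aldh1a3 in WT-O2, like Aldh1a3 (0.343 ± 0.190), Stra6 (0.268 ± 0.0140) and Crabp2 (0.185 ± 0.0770) in WT-RA, had overlapping ranges of mean ± SD, so their order is uncertain.

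Markers of the mesothelium, the cell layer that covers the lung, moved in the same direction as Aldh1a2. All 7 of 7 mesothelial markers had a higher mean in hyperoxia in both genotypes, among them Msln, Upk3b and Wt1, and none was at 0 in all lungs. Their summed level was 125 to 238 CPM in WT-RA, 261 to 469 in WT-O2, 187 to 241 in KO-RA and 336 to 574 in KO-O2. WT-RA mouse 3 was the lowest lung both for this sum and for Aldh1a2, and KO-O2 mouse 2 the highest for both. Set against the sum, a ratio chosen after the values were seen, Aldh1a2 was at 3.04 to 4.08 CPM per 100 CPM of mesothelial markers in WT-RA and 6.29 to 7.29 in WT-O2. It was at 2.74 to 4.85 in KO-RA and 5.72 to 8.59 in KO-O2. This ratio, whose sum includes Krt19, did not overlap in either genotype. The same ratio for Aldh1a3 was 0.380 to 0.805 in WT-RA, 2.55 to 3.67 in WT-O2, 0.639 to 0.857 in KO-RA and 1.97 to 4.77 in KO-O2. Of the markers in the sum, Krt19 alone held 98.1 to 119 CPM in room air lungs and 120 to 141 CPM in hyperoxic lungs. Msln held 15.1 to 63.3 CPM in room air and 77.3 to 248 CPM in hyperoxia. The ratios thus rest in large part on Krt19, which moved less than Msln. Against Msln alone, Aldh1a2 overlapped between exposures in both genotypes. WT-RA mouse 3 held 3.78 CPM of Aldh1a2 against 15.1 of Msln, and WT-O2 mouse 2 held 29.5 against 187. KO-RA mouse 3 held 11.7 against 59.8, and KO-O2 mouse 2 held 34.9 against 248. Mouse 1 went the other way, at 6.21 against 38.0 in WT-RA and 19.0 against 77.3 in WT-O2. In GSDMD-KO these were 6.63 against 42.5 and 28.9 against 120. A rise of Aldh1a2 beyond Msln was thus not shown, and ratios to the sum without Krt19 were not computed.

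Lung fibroblast markers moved in the same direction as Crabp1 and Cyp26b1 in sum, though not one by one: 7 of 11 had a lower mean in hyperoxia in WT and 8 of 11 in GSDMD-KO, and none was at 0 in all lungs. The sum was 3710 to 5020 CPM in WT-RA, 2080 to 2320 in WT-O2, 3720 to 4040 in KO-RA and 2110 to 2220 in KO-O2. Per 100 CPM of these markers, Cyp26b1 was at 1.18 to 1.37 CPM in WT-RA and 0.186 to 0.442 in WT-O2, and at 0.840 to 1.01 in KO-RA and 0.163 to 0.412 in KO-O2. Crabp1 went from 0.681 to 2.12 in WT-RA to 0.00640 to 0.0430 in WT-O2 by the same ratio. Npnt and Limch1 held much of the sum, at 1510 to 1750 and 859 to 1220 CPM in WT-RA. In WT-O2 they held 579 to 702 and 742 to 886 CPM. Inmt fell further, from 522 to 1140 CPM in WT-RA to 61.8 to 86.0 in WT-O2, while Dcn rose from 42.6 to 77.4 to 146 to 185. The ratios therefore do not show a fall beyond each fibroblast marker, and ratios to single markers were not computed. Within the room air groups Crabp1 ran opposite to the fibroblast sum. It was at 34.2, 45.1 and 78.6 CPM in WT-RA against sums of 5020, 4410 and 3710. In KO-RA it was at 56.0, 49.2 and 31.4 CPM against sums of 3720, 3940 and 4040. It had the mouse order of the myofibroblast and smooth muscle sum, at 831, 1170 and 1770 CPM in WT-RA and 1300, 1250 and 1230 in KO-RA. Of the other lung cell types, some moved in the same direction as the fibroblast sum and some did not. Of 8 endothelial markers, 7 had a lower mean in hyperoxia in both genotypes, with sums of 4210 to 4690 CPM in WT-RA, 2990 to 3420 in WT-O2, 3820 to 4030 in KO-RA and 2730 to 3530 in KO-O2. Of 6 alveolar type 2 markers, 5 in WT and 6 in GSDMD-KO had a lower mean, with sums of 19800 to 22400 CPM in WT-RA, 14100 to 17000 in WT-O2, 20400 to 22400 in KO-RA and 13900 to 16300 in KO-O2. Of 9 myofibroblast and smooth muscle markers, 7 had a higher mean in hyperoxia in both genotypes. Their sums were 831 to 1770 CPM in WT-RA, 1630 to 1770 in WT-O2, 1230 to 1300 in KO-RA and 1120 to 1830 in KO-O2. Alveolar type 1 and macrophage markers were mixed, with 3 of 5 and 4 of 6 higher in both genotypes. Alveolar type 1 sums were 3200 to 3510 CPM in WT-RA, 2730 to 3050 in WT-O2, 3050 to 3470 in KO-RA and 2750 to 2910 in KO-O2. Macrophage sums were 379 to 765, 235 to 406, 147 to 172 and 180 to 285 CPM in the same order. Club and ciliated markers, 3 of 5 higher in WT and 1 of 5 in GSDMD-KO, summed to 11800 to 14100, 9840 to 10600, 11100 to 14000 and 7520 to 11300 CPM. The part of any of these cell types was not tested beyond the ratios above.

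**Figure D2:**
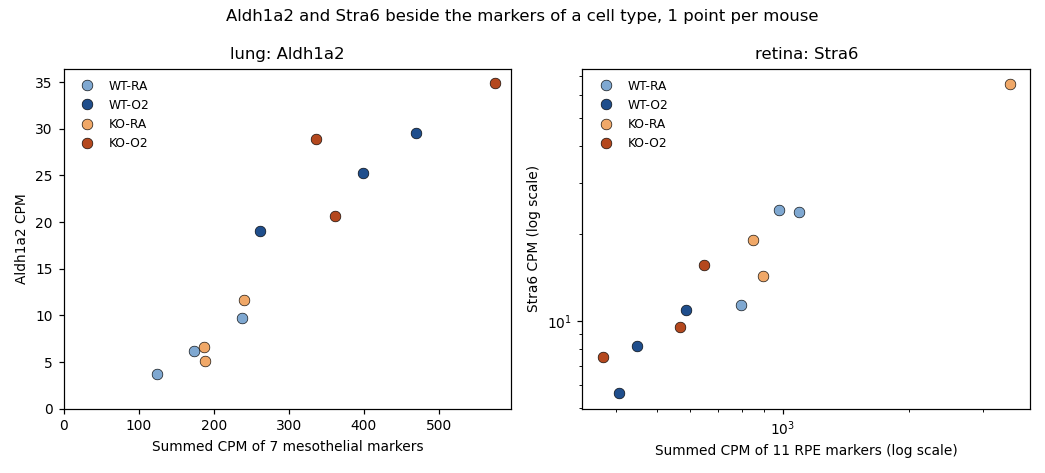
Left, Aldh1a2 against the summed level of 7 mesothelial markers in the 12 lungs, in CPM on linear axes. Right, Stra6 against the summed level of 11 markers of the retinal pigment epithelium (RPE) in the 12 retinas, in CPM on log axes. Each point is 1 mouse, WT-RA mouse 3 is lowest on both axes at left, and KO-RA mouse 3 is highest on both axes at right.

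The profile most like that of Crabp1 over the 12 lungs, by the root mean square difference of centred log2 CPM, was that of Lenep (0.84), followed by Glb1l3 (1.00), Wfdc6b (1.07), Wfdc8 (1.11) and Glp1r (1.31). Glp1r encodes the receptor of the gut hormone GLP-1. The distances are on the log2 scale and describe these libraries only.

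Because Rarb, Cyp26b1 and others are known targets of retinoic acid, their promoters were searched for the core site bound by retinoic acid receptors, on either strand. The letters searched were AGGTCA, a variant that begins with another base, which is GGGTCA, a variant that differs inside the motif, which is AGTTCA, and the variant with both changes, which is GGTTCA. RefSeq promoters of GRCm38.p6 were matched for 7 of the 9 genes, those of Crabp2 and Aldh1a3 being without an entry in the table. The 250 bases before the start site are shown for Rarb, as the gene with a classical response element, and for Crabp1, Cyp26b1 and Aldh1a2, as genes whose lung levels differed with hyperoxia. Capitals mark the core sites.
Rarb, chr14:16575477-16575726 (minus strand): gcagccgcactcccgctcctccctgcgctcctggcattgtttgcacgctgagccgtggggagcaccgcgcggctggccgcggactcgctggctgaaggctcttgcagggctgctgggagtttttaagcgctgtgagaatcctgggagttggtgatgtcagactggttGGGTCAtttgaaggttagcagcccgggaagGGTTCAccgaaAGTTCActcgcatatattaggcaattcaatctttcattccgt
Crabp1, chr9:54764498-54764747 (plus strand): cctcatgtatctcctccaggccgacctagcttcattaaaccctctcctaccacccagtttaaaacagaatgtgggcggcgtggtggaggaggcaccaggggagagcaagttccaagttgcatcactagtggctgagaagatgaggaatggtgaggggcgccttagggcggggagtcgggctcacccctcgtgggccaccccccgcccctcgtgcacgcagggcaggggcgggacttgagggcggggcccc
Cyp26b1, chr6:84593811-84594060 (minus strand): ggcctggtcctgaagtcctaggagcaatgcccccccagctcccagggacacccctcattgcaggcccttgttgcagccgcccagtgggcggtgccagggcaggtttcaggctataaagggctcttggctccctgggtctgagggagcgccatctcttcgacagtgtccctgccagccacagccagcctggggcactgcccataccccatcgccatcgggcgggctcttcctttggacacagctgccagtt
Aldh1a2, chr9:71215539-71215788 (plus strand): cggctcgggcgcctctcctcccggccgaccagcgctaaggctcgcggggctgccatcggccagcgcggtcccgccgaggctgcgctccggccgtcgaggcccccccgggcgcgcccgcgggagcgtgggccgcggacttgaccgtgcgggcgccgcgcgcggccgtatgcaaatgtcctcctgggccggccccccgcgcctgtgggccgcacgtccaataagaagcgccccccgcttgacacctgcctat
The Rarb promoter held 3 core sites, of which 2, separated by 5 bases, form a direct repeat from 53 to 37 bases before the start. Of 32851 mouse promoters of the same length, 0.0883% held a direct repeat with this spacing and 38.6% held at least 1 core site. The other 3 promoters shown held none in this window, and no promoter of the 7 genes held a repeat with a spacing of 1 or 2 bases, found in 0.164% and 0.174% of all promoters. Single core sites were also present in 1 of 2 promoters of Aldh1a1 and 1 of 2 of Rbp4, and in none of the 4 of Stra6. A match describes the letters only.

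**Figure D3:**
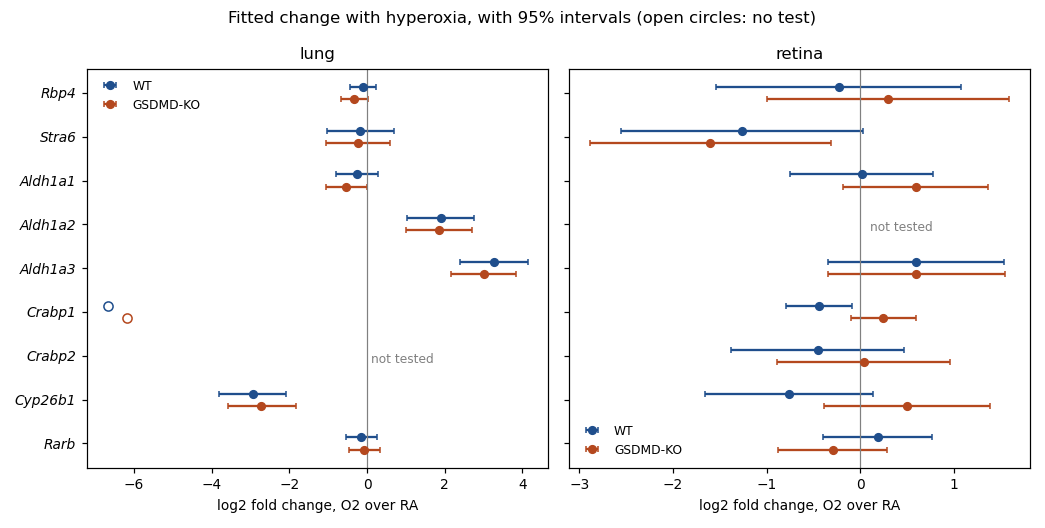
Fitted log2 fold changes of hyperoxia over room air in WT and GSDMD-KO mice, with 95% intervals, for lung (left) and retina (right), whose horizontal axes differ in range. Crabp1 in the lung is drawn as open circles without an interval because it was selected on that change. The lung intervals of Aldh1a2, Aldh1a3 and Cyp26b1 lie to 1 side of 0 in both genotypes, and most retina intervals cross 0.

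In retinas, taken on day 18 after the return to room air on day 12, none of the 8 tested genes was called in WT or in GSDMD-KO by edgeR's quasi-likelihood test, and 1 in each genotype had an unadjusted p under 0.05, Crabp1 in WT and Stra6 in GSDMD-KO. The share called over all genes tested was 2.04% for WT and 2.19% for GSDMD-KO. An unadjusted p under 0.05 in edgeR was held by 3332 of the 19173 genes tested in WT and by 3890 in GSDMD-KO. DESeq2 called 1 of the genes, Stra6 in GSDMD-KO.

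STRA6 in the eye is made chiefly by the RPE, the pigmented layer behind the photoreceptors, where it takes up retinol from blood. Stra6 was at 11.3, 24.1 and 23.8 CPM in WT-RA retinas and at 10.9, 8.20 and 5.62 CPM in WT-O2 retinas. It was at 19.0, 14.3 and 65.6 CPM in KO-RA retinas and at 9.51, 7.49 and 15.6 CPM in KO-O2 retinas. The WT groups were only just apart and the GSDMD-KO groups overlapped, with KO-RA mouse 3 above all others. The log2 difference was -1.26 in WT (95% interval -2.56 to 0.03, edgeR, adjusted p = 0.30) and -1.60 in GSDMD-KO (95% interval -2.89 to -0.31, edgeR, adjusted p = 0.16). Without the 3 retinas rich in lens transcripts, an alternative chosen after the data were seen that leaves 1 WT-RA retina assumed to vary like the others, these were -0.46 and -0.61 (edgeR, adjusted p = 0.61 and 0.41). Without KO-RA mouse 3 alone, the GSDMD-KO value was also -0.61, and without WT-RA retina 2 alone the WT value was -1.09.

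Of 11 RPE markers, none at 0 in all retinas, 11 had a lower mean in WT-O2 than in WT-RA and 10 a lower mean in KO-O2 than in KO-RA. Their sum was 795 to 1090 CPM in WT-RA, 406 to 589 in WT-O2, 848 to 3470 in KO-RA and 372 to 649 in KO-O2. Rlbp1, also a marker of Müller glia, held 565 of the 795 CPM in WT-RA mouse 1 and 262 of the 372 in KO-O2 mouse 2. In KO-RA mouse 3 it held 648 of the 3470 CPM. The sum and the ratio below thus rest in part on a transcript that is not particular to the RPE. The retina with the most Stra6, KO-RA mouse 3, also had the most Rpe65, the isomerase that defines the RPE, at 249 CPM against 4.42 to 37.3 CPM in the others. Per 100 CPM of RPE markers Stra6 was at 1.42 to 2.47 CPM in WT-RA, 1.38 to 1.84 in WT-O2, 1.59 to 2.24 in KO-RA and 1.67 to 2.41 in KO-O2, so the groups overlapped by this ratio. The profiles most like that of Stra6 over the 12 retinas were those of Slc16a8 (0.20), a lactate transporter of the RPE, Enpp2 (0.21), Cltrn (0.27), Slc16a9 (0.28) and Rdh5 (0.29), a retinol dehydrogenase of the RPE, on the same log2 scale as above.

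Crabp1 in the retina, where it is known from amacrine cells, was at 63.2, 38.4 and 53.8 CPM in WT-RA, 40.4, 34.8 and 39.4 CPM in WT-O2, 39.0, 36.9 and 45.1 CPM in KO-RA and 50.5, 48.7 and 43.9 CPM in KO-O2. Each hyperoxia group overlapped its room air group, and KO-O2 lay above WT-O2. The log2 difference with hyperoxia was -0.44 in WT (SE 0.16, edgeR, adjusted p = 0.18) and 0.24 in GSDMD-KO (SE 0.16, edgeR, adjusted p = 0.43). The difference between these responses was 0.68 (95% interval 0.19 to 1.17), with an unadjusted p of 0.011 in the edgeR fit and an adjusted p of 0.30, and did not pass. Without the 3 lens-rich retinas the WT difference was -0.73 (edgeR, adjusted p = 0.049), under 2-fold, and the difference between the responses was 1.06 (edgeR, adjusted p = 0.25). Without WT-RA retina 2 alone these were -0.62 and 0.86 (edgeR, adjusted p = 0.052 and 0.26). Amacrine markers summed to 894 to 1130 CPM in WT-RA, 700 to 771 in WT-O2, 845 to 945 in KO-RA and 609 to 936 in KO-O2, and their part was not tested. Every retina held at least 34.8 CPM of Crabp1. Oxygen level, age and time since exposure differed between retinas and lungs, and the tissues were not compared by a test.

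Aldh1a1, which in the eye marks the dorsal retina, was at 29.4, 25.3 and 64.5 CPM in WT-RA and 35.3, 34.3 and 51.0 CPM in WT-O2, and at 16.9, 27.0 and 35.0 CPM in KO-RA and 42.1, 37.5 and 39.0 CPM in KO-O2. The GSDMD-KO groups did not overlap, but the log2 difference of 0.59 (95% interval -0.18 to 1.36) did not pass (edgeR, adjusted p = 0.38), and neither did the 0.85 found without the lens-rich retinas (adjusted p = 0.12). The WT difference was 0.02, and 0.45 without those retinas (edgeR, adjusted p = 0.99 and 0.47). Cyp26b1 was low, at 0.516 to 1.26 CPM over all retinas, and its log2 differences of -0.76 in WT and 0.50 in GSDMD-KO did not pass (edgeR, adjusted p = 0.37 and 0.54), nor did the difference between them of 1.26 (95% interval -0.00 to 2.53, edgeR, adjusted p = 0.47), which was 1.10 without the lens-rich retinas. Crabp2 lay between 1.55 and 5.91 CPM, Rarb between 3.45 and 6.67, Aldh1a3 between 0.477 and 2.18 and Rbp4 between 0.192 and 1.71 CPM. Aldh1a2 had 0 to 7.59 expected counts per retina and was not tested.

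**Figure D4:**
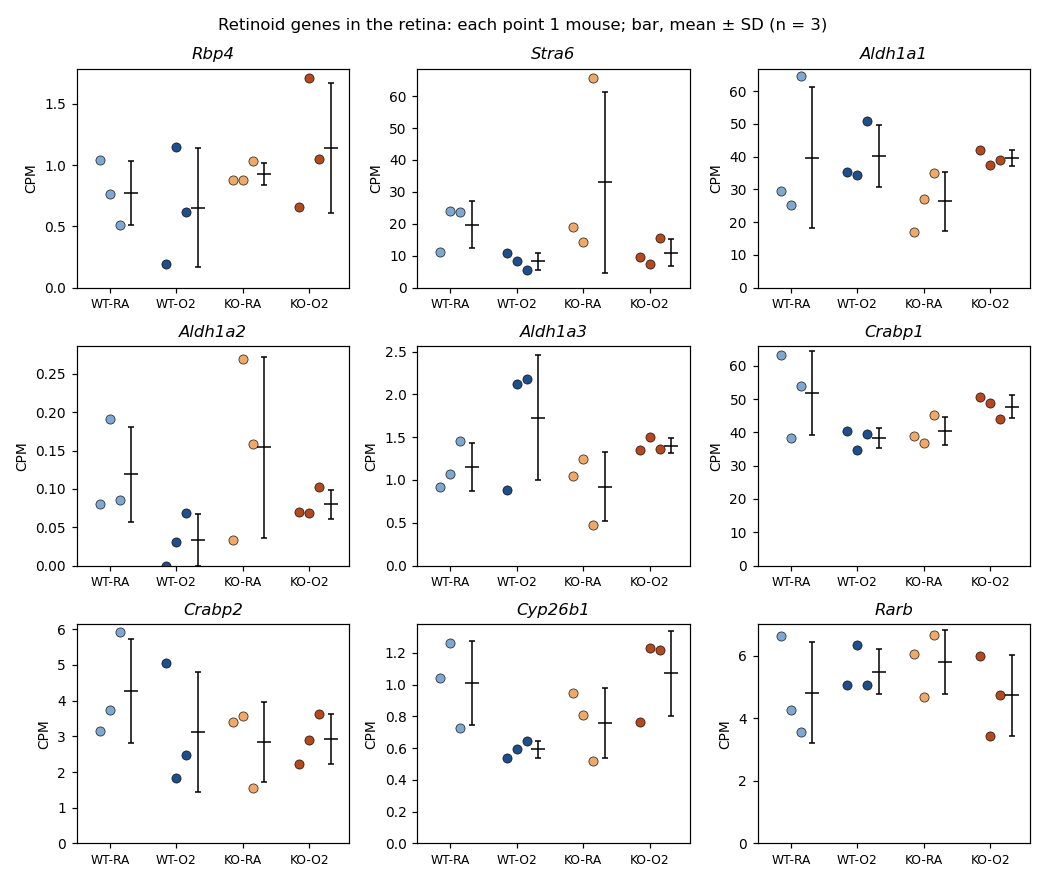
Levels of the 9 genes in the 12 retinas, in CPM on linear axes that start at 0 and differ between panels. Each point is 1 mouse and the black bar beside it the mean ± SD of 3 mice. KO-RA mouse 3, at 65.6 CPM, stands above all others for Stra6, and most panels show overlap between O2 and RA.

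Between genotypes, none of the 8 tested genes was called in the retina by edgeR in hyperoxia, in room air or for the interaction. Crabp1 was the gene with an unadjusted p under 0.05 in room air (log2 difference -0.36, edgeR, adjusted p = 0.38, and -0.75 with adjusted p = 0.18 without the lens-rich retinas) and for the interaction, and in hyperoxia no gene had one. Over all genes tested, 0.292% were called in hyperoxia, 0.00522% in room air and 0.00522% for the interaction. Of the 19173 genes tested, 2412, 2427 and 2035 had an unadjusted p under 0.05 in edgeR, in the same order.

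The wider pathway was read from 6 lists of 66 genes that hold none of the 9, also chosen with earlier results of these data known. In the lung 54 of the 66 were tested, and 1 was higher and 5 were lower with hyperoxia in WT, 11.1% of those tested against the 11.6% called over all genes. In GSDMD-KO 3 were lower, or 5.56% against 10.6%. In the retina 53 were tested, 3 were higher in WT (5.66% against 2.04%) and 1 in GSDMD-KO (1.89% against 2.19%). No gene of the lists was called between genotypes or for the interaction in either tissue.

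Among the 12 genes of retinol transport and storage, 9 of them tested in the lung, Lrat, the enzyme that esterifies retinol for storage, fell by 1.58 on the log2 scale in WT lungs (edgeR, adjusted p = 0.00012). Its WT means were 8.73 CPM in room air and 2.92 in hyperoxia. The GSDMD-KO means were 5.89 and 3.39 CPM, and the difference of -0.80 was under 2-fold. Stra6l, which encodes another receptor for RBP4 (also called Rbpr2), rose by 1.29 in WT, from 1.18 to 2.89 CPM (edgeR, adjusted p = 0.002). In GSDMD-KO its means were 1.25 and 2.05 CPM, a difference of 0.71 that was under 2-fold (edgeR, adjusted p = 0.061). Lipe, a lipase that can free retinol from its esters, was lower by less than 2-fold, at log2 differences of -0.70 and -0.95 (edgeR, adjusted p = 7.5e-06 and 5.1e-07).

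None of the 15 tested genes of retinol and retinal interconversion was called in the lung. Rdh10, the dehydrogenase that makes retinal for retinoic acid synthesis, had log2 differences of 0.39 in WT and 0.68 in GSDMD-KO, and Dhrs3, which runs the reverse reaction, of -0.40 and -0.39, all with an adjusted p under 0.1 in edgeR but under 2-fold. None of the 3 tested genes of turnover and carriage was called either. Fabp5, a fatty acid binding protein that can also carry retinoic acid, had log2 differences of -0.62 and -0.46, and Aldh1a7, a close copy of Aldh1a1 with which reads may be shared, of 0.13 and -0.10.

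Of 8 receptors and corepressors, all tested, 1 was called in each genotype in the lung. Rxrg, a retinoid X receptor, was at 2.58, 4.47 and 5.16 CPM in WT-RA and 0.614, 0.482 and 0.270 CPM in WT-O2, and fell by 3.15 in WT and by 2.04 in GSDMD-KO on the log2 scale (edgeR, adjusted p = 3.6e-06 and 0.00018). Rarg, a retinoic acid receptor, had log2 differences of -0.62 in WT and -0.39 in GSDMD-KO, both short of 2-fold.

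The list of 16 retinoic acid target genes had 15 members tested in the lung, of which 3 were lower in WT and 1 in GSDMD-KO. Hoxa5, a homeobox gene needed for lung development, fell by 1.83 in WT (mean 129 to 36.2 CPM) and by 1.27 in GSDMD-KO (104 to 43.4 CPM; edgeR, adjusted p = 9.2e-08 and 3.2e-06). Hoxa2 fell by 1.30 in WT (edgeR, adjusted p = 0.00089), and its difference of -0.96 in GSDMD-KO was just under 2-fold (edgeR, adjusted p = 0.0066). Hoxb1, at under 0.4 CPM in every group mean, fell by 1.70 in WT (edgeR, adjusted p = 0.039), a call that was lost without WT-RA mouse 3 (adjusted p = 0.22) or WT-O2 mouse 3 (0.12). The median of the list was -0.37 in WT and -0.26 in GSDMD-KO. Of the visual cycle genes, Rrh was called in GSDMD-KO at means of 0.501 and 0.241 CPM, and that call was lost under 8 of 18 alternatives (edgeR or the other tools, adjusted p from 0.072 to 0.26, with a fold change under 2 in some), among them the fits without KO-RA mouse 1, KO-RA mouse 2, KO-O2 mouse 1 and KO-O2 mouse 2.

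**Figure D5:**
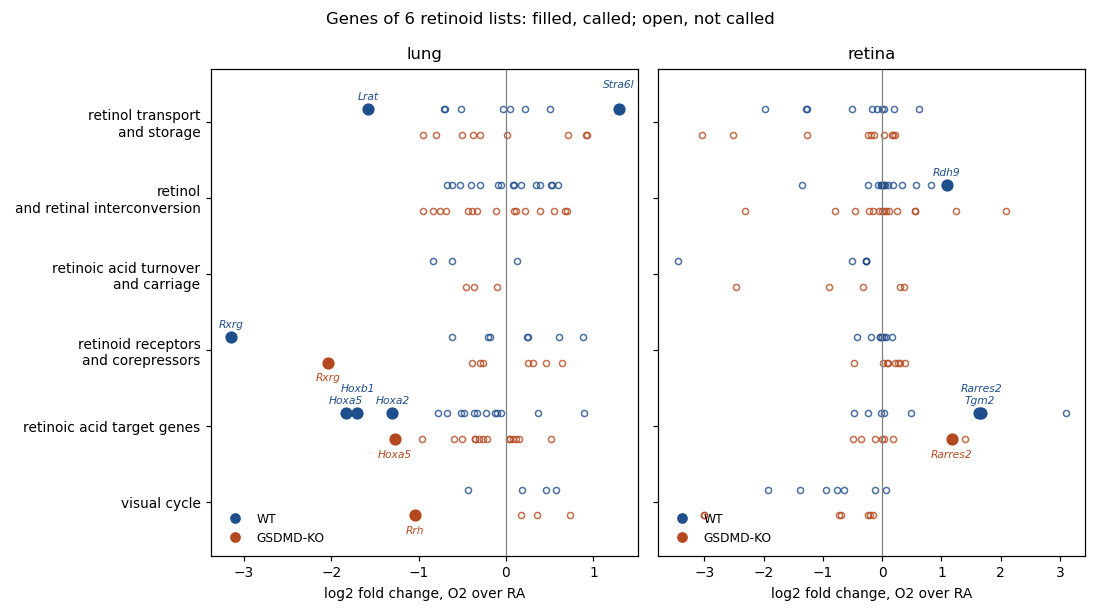
Log2 fold changes of hyperoxia over room air for the tested genes of 6 retinoid lists in lung (left) and retina (right), with WT above and GSDMD-KO below within each list. Filled points with names were called and open points were not. In the lung most called genes lie left of 0, with Stra6l as the exception, and in the retina all called genes lie right of 0.

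In the retina, 2 of 8 tested target genes rose in WT. Rarres2, which encodes the chemoattractant chemerin, was at 3.96, 3.43 and 6.98 CPM in WT-RA and 16.2, 11.1 and 18.5 CPM in WT-O2, without overlap, and at 2.37, 5.85 and 4.05 CPM in KO-RA and 10.6, 9.57 and 7.60 CPM in KO-O2. The increases were 1.67 and 1.18 on the log2 scale (edgeR, adjusted p = 0.032 and 0.084). Tgm2, tissue transglutaminase, rose by 1.64 in WT, from a mean of 3.05 to 9.49 CPM (edgeR, adjusted p = 0.048), and had a mean of 3.86 CPM in both GSDMD-KO groups. The KO-RA values were 2.10, 2.93 and, in the lens-rich mouse 3, 6.56 CPM, and without the lens-rich retinas the GSDMD-KO difference was 0.62 (edgeR, adjusted p = 0.35).

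Rdh9, a retinol dehydrogenase, rose by 1.09 in WT retinas, from a mean of 1.44 to 3.06 CPM (edgeR, adjusted p = 0.063). All 4 retina calls were lost without the 3 lens-rich libraries, with log2 differences of 1.94 for Rarres2, 1.58 for Tgm2 and 1.16 for Rdh9 in WT and 1.17 for Rarres2 in GSDMD-KO and adjusted p from 0.11 to 0.18 in edgeR. With sex as a covariate, which ran partly with exposure, the calls of Tgm2 and Rdh9 in WT and of Rarres2 in GSDMD-KO were lost (edgeR, adjusted p = 0.21, 0.14 and 0.17). Without single libraries, the WT calls of Rarres2 were lost for WT-RA 1, WT-RA 2 and WT-O2 3, those of Tgm2 for WT-RA 1, WT-RA 2, WT-O2 2 and WT-O2 3, and those of Rdh9 for every WT retina but WT-RA 3, with adjusted p from 0.11 to 0.21. The GSDMD-KO call of Rarres2 was lost without WT-O2 1 or 3, KO-RA 1 or 3, or any KO-O2 retina (adjusted p from 0.11 to 0.23).

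No visual cycle gene was called in the retina. The median log2 difference of the 7 genes was -0.76 in WT and -0.69 in GSDMD-KO, and the list shares Rpe65, Rgr and Rlbp1 with the RPE markers above. Rlbp1, the retinal binding protein of RPE and Müller glia, had log2 differences of -0.65 and -0.69 (edgeR, adjusted p = 0.096 and 0.064), and Rdh11, a photoreceptor retinol dehydrogenase of the interconversion list, of -0.80 in GSDMD-KO (edgeR, adjusted p = 0.0038), at 44.6, 38.7 and 45.3 CPM in KO-RA and 25.7, 22.7 and 25.6 CPM in KO-O2, all short of 2-fold. Without the lens-rich retinas the median of the visual cycle genes was -0.64 in WT and -0.43 in GSDMD-KO, Rlbp1 stood at -0.94 and -0.50 (edgeR, adjusted p = 0.053 and 0.14) and Rdh11 in GSDMD-KO at -0.75 (edgeR, adjusted p = 0.028).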

How the data were processed

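RNA of 12 lungs and 12 retinas was sequenced as paired reads, assigned to mouse transcripts with kallisto and summed per gene with tximport by the authors, who deposited 1 table of expected counts per tissue. The labels name mm10 and the study's methods GRCm39 as the build, and the setting of tximport is not given in the sources used here. Values above 0 lay within 0.01 of a whole number in 55.8% of lung and 2.2% of retina entries, so retina counts may have been rescaled, and genes were compared per length in the lung only. Values were rounded to whole counts for the tests. Symbols were matched by Ensembl identifier to a table of gene names (35816 lung and 35968 retina genes), and genes without one held at most 0.788% of a library.

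Genes were filtered with filterByExpr and tested with edgeR 4.0.16 (quasi-likelihood F-test, TMM factors, robust, 12 libraries of a tissue in 1 fit) under R 4.3.3. A call needed a 2-fold change with p under 0.05 and adjusted p under 0.1, or an adjusted p under 0.1 for the interaction, the thresholds being those of the study's methods, which used DESeq2. CPM used TMM factors. DESeq2 1.42.0 and limma 3.58.1 (voom), RLE factors, no filter, fits of the 2 groups compared, sex as a covariate (Y-linked transcripts over 20 CPM), no fold threshold and each library left out were the alternatives. The fits were tested on simulated data. Each mouse gave 1 library, and the labels do not say which mice were littermates.

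The 9 genes and all lists were chosen with earlier results of these data known. Genes named from the lists were, per tissue, those called in any comparison and up to 3 per list with the smallest p with hyperoxia. The text names all that were called and a part of the others.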

Additional observations from a re-analysis of the deposited data

How the results depend on the processing

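The number of the 9 genes called equalled the reported one in 190 of 191 alternatives, the exception being hyperoxia in GSDMD-KO retinas, with 1 call under DESeq2 against 0. Of 1464 fold changes of these genes under an alternative, 72 had the other sign, in 34 of 80 comparisons, none of them called. No paired analysis was possible because the mice carry their own numbers and the groups share no replicate numbers in the labels. Values here are log2 differences, first as reported and then with 1 library left out at a time. In the lung they were, for hyperoxia in WT, -0.18 (-0.73 to 0.14, and 0.01 with sex) for Stra6 and -0.11 (-0.25 to 0.03) for Rbp4, and for hyperoxia in GSDMD-KO -0.07 (-0.16 to 0.04, and 0.04 with sex) for Rarb, -0.23 (-0.62 to 0.01, and 0.03 with sex) for Stra6 and 0.08 (-0.23 to 0.42) for Hoxb1. Between genotypes in hyperoxia they were 0.12 (-0.15 to 0.33, and -0.16 with sex) for Aldh1a3, -0.39 (0.02 with sex) for Cyp26b1, -0.15 (-0.28 to 0.06) for Aldh1a1, -0.01 (-0.16 to 0.13) for Rbp4, 0.28 (-0.18 to 0.94) for Crabp1 and 0.34 (-0.06 to 0.90) for Stra6. In room air they were -0.21 (-0.44 to 0.20, and 0.21 with sex) for Crabp1, 0.12 (-0.09 to 0.33) for Aldh1a1 and 0.25 (-0.16 to 0.65) for Aldh1a2. For the interaction they were -0.05 (-0.45 to 0.51, and 0.03 with voom and with sex) for Stra6, -0.26 (-0.81 to 0.02) for Aldh1a3, -0.06 (-0.46 to 0.34) for Aldh1a2, 0.08 (-0.03 to 0.31) for Rarb and 0.22 (-0.36 to 0.45) for Cyp26b1. In the retina, where "lens" marks the fit without the 3 lens-rich libraries, they were 0.02 (-0.22 to 0.55, and -0.12 with sex) for Aldh1a1, 0.19 (-0.07 with sex, -0.28 lens) for Rarb and -0.23 (-0.93 to 0.19) for Rbp4 with hyperoxia in WT, and 0.04 (-0.26 to 0.23, -0.25 lens) for Crabp2, 0.30 (-0.12 to 0.57) for Rbp4 and 0.00 (-0.29 to 0.62, -0.07 with sex) for Tgm2 in GSDMD-KO. Between genotypes they were -0.09 (-0.36 to 0.43, 0.05 with voom, 0.03 with sex) for Crabp2 and -0.02 (-0.13 to 0.17) for Aldh1a1 in hyperoxia, and 0.74 (-0.24 to 1.10) for Stra6 in room air, where lens gave 0.13 for Crabp2, -0.26 for Rbp4, 0.31 for Aldh1a3 and -0.32 for Rarb. For the interaction they were 0.01 (-0.30 to 0.28, -0.61 lens) for Aldh1a3 and -0.33 (-0.69 to 0.65) for Stra6, with -0.23 for Crabp2 and 0.10 for Rarb under lens. The cause of these changes was not tested. Counts over all genes moved by more than 1.5 times with DESeq2 to 31, 71 and 110 for the 2 genotype comparisons and the interaction in the lung and to 647, 663, 174, 30 and 569 for the 5 retina comparisons, and without a fold threshold to 8268, 7857, 7 and 82 in the lung and 990, 1500 and 244 in the retina. With sex they were 2, 0 and 0 for the genotype comparisons in hyperoxia and room air and the interaction in the lung, and with the 2 groups compared 8 and 10 in the lung and 0 for genotype in room air in the retina. The lung interaction gave 0 with voom and 2 without a filter. Without the lens-rich libraries the retina gave 27, 0 and 0 for the genotype comparisons and the interaction. With 1 library left out, counts ran from 1 to 23, 1 to 109 and 0 to 45 for the 2 genotype comparisons and the interaction in the lung, and from 196 to 504, 151 to 439, 6 to 83, 0 to 1 and 0 to 340 for the 5 retina comparisons, so the background shares of the retina and of the genotype comparisons are uncertain to this extent. With 3 mice a group and few reads for Crabp2 in the lung and Aldh1a2 in the retina, differences in these 2 genes were not detectable at this depth.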
